A study of Drosophila melanogaster with 10 samples.

Results

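Innexins are the proteins of insect gap junctions, and the family was followed here by the 8 genes ogre, Inx2, Inx3, zpg, Inx5, Inx6, Inx7 and shakB of Drosophila melanogaster. A probe set was taken as a member when the platform annotation gave it 1 gene and that gene was an innexin. This found 7 probe sets among the 13966 tested, 1 for each of 7 genes, and none named shakB. RNA came from Malpighian (renal) tubules dissected from 7 day old adult Oregon R flies of mixed sexes, and from whole flies of the same strain, age and sexes, with 5 tubule arrays and 5 whole fly arrays. Tubules were cut from the gut at the lower ureter, and each tubule sample was paired with whole flies of the same culture, so that arrays 2 to 6 of one kind match arrays 2 to 6 of the other. Each array holds RNA pooled from many animals. The whole fly sample contains the tubules too, and a lower signal in a bulk sample cannot separate fewer cells of a type from less RNA per cell.

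Innexin subunits assemble into channels, and channels of adjoining cells dock to form a pore through which ions and small molecules pass from cell to cell. They are the invertebrate counterparts of the vertebrate connexins, with which they share no sequence relation. Different innexins can combine in one channel or meet across a junction, as Inx2 does with ogre (Inx1), Inx3 and zpg (Inx4) in the fly. In epithelia gap junctions lie beside the septate junctions, which seal the space between cells, and the adherens junctions, which hold cells together.

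Markers of tubule cells are given as a description of the 2 samples. The lists were chosen with earlier results of these data known, so their signals are no independent check. Of 7 measured markers of the principal cell, 6 were higher in tubule and none lower, and the summed signal was 15565 to 18135 in tubule arrays against 3050 to 4185 in fly arrays. Of 8 markers of the stellate cell, 5 were higher and 1 lower, with a summed signal of 1914 to 2505 in tubule arrays against 764 to 859 in fly arrays. Most markers of other tissues were lower, but they were not at 0. Those of the digestive midgut, all 10 of which were lower, summed to 953 to 17964 in tubule arrays against 40050 to 51809 in fly arrays, and stood apart between the tubule arrays, with 15945, 17964 and 12404 in arrays 2, 3 and 5 and with 953 and 2932 in arrays 4 and 6. Beside these counts, 16.5% of all genes were higher in tubule and 40.3% lower. The deposited values hold no detection calls, so a signal under 50 is treated here as low.

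Innexins moved in both directions. Inx7, Inx2 and Inx6 had a higher signal in tubule and ogre, zpg and Inx3 a lower one, relative to whole flies (limma, adjusted p under 0.05). Inx5 passed in neither direction. The names Inx7 and Inx6 are those of the platform annotation and are in doubt, as set out with Inx7, but both probe sets were called higher. Over all probe sets 16.8% were called higher and 36.3% lower, so that 3 of 7 higher and 3 of 7 lower are counts over few genes. The signals did not overlap between the groups for Inx7, which lay above, and for ogre, Inx3 and zpg, which lay below, while 14.1% of all probe sets lay wholly above and 29.6% wholly below.

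**Figure D1:**
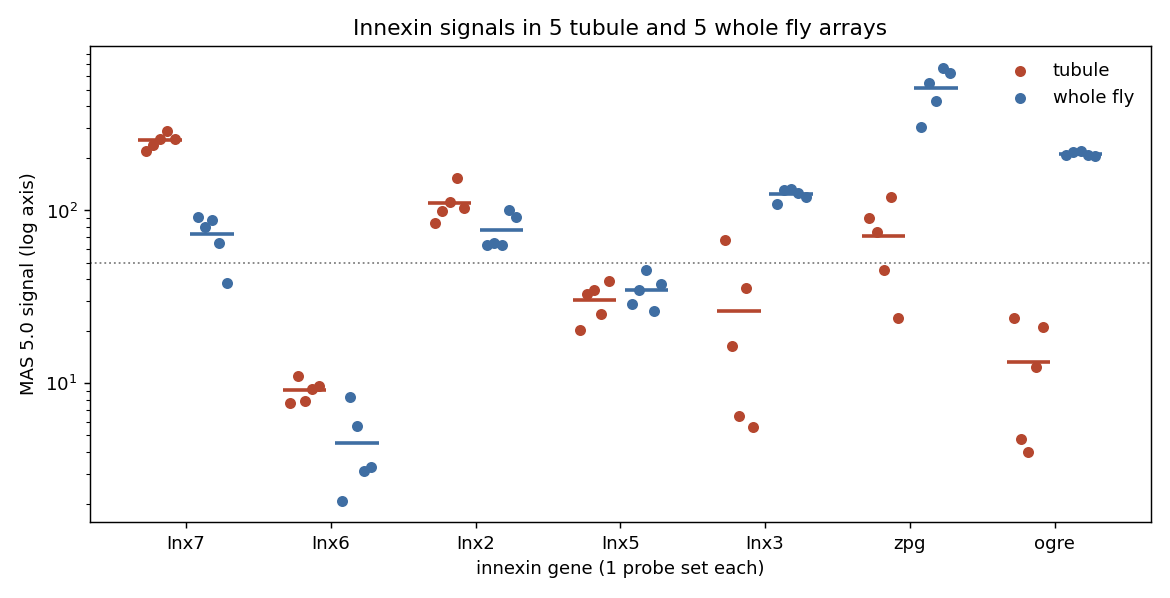
MAS 5.0 signal (log axis) of each innexin in 5 tubule arrays (red, left of each pair of columns) and 5 whole fly arrays (blue); bars are group means and the dotted line marks a signal of 50. All 5 tubule arrays lie above all 5 fly arrays for Inx7 (222 to 288 against 38.0 to 91.4), and below them for ogre, Inx3 and zpg.

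Inx7 is best known from the nervous system and the embryonic epithelia of the fly. It had signals of 222.3, 240.2, 259.5, 288.4 and 259.9 in tubule arrays 2 to 6, against 91.4, 80.8, 88.0, 65.0 and 38.0 in fly arrays 2 to 6. Every tubule array stood above every fly array. The mean signal was 254 ± 24.7 in tubule and 72.6 ± 21.9 in whole flies, and the enrichment, that is the ratio of tubule to fly signal averaged over the pairs, was 3.93 ± 1.79 (SD, n = 5 pairs). The log2 fold change was 1.87 (SE 0.22, adjusted p = 1.8e-04, limma). The ratio was lowest in pair 2 (2.43) and highest in pair 6 (6.84), where the fly signal was lowest. The platform annotation names this probe set, 144173_at, for Inx7, while the additional data file of the study lists the same probe set under inx6. The annotation gives 144172_at to Inx6, so the names of these 2 probe sets may be exchanged. The gene identifiers also run against the map: that of Inx7 (33027) is numbered between those of CG17065 and CG1504, which lie on either side of Inx6 on the X chromosome, and that of Inx6 (31645) between those of bou and Inx2, which flank Inx7. The numbering thus goes with the additional data file, but no probe sequence was matched here, and the names of the annotation are kept.

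Inx2, the most widely used innexin of fly epithelia, was higher in tubule by a small margin. Its tubule signals were 85.1, 99.9, 111.5, 154.8 and 103.0, against 63.3, 64.8, 63.5, 101.2 and 91.4 in whole flies. The groups overlapped, but tubule was the higher in all 5 pairs. The enrichment was 1.46 ± 0.236 (SD, n = 5 pairs) and the log2 fold change 0.53 (95% interval 0.20 to 0.86, adjusted p = 0.015, limma). With the signal of RpL32, a ribosomal protein gene, held constant the log2 fold change was 0.19 (adjusted p = 0.34), and with pairs 4 and 6 alone it was 0.49 (adjusted p = 0.23).

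Inx6, a gene studied mainly in the mushroom body of the brain, had low signals throughout: 7.7, 11.1, 7.9, 9.3 and 9.7 in tubule against 2.1, 8.3, 5.7, 3.1 and 3.3 in whole flies. Tubule was higher in all 5 pairs and the groups overlapped. The log2 fold change was 1.18 (adjusted p = 0.037, limma). No array reached a signal of 50, and with signals under 50 set to 50 the difference was 0. The call was also lost without pair 2, without pair 5 or without pair 6, with an adjusted p of 0.10 each time, and with pairs 4 and 6 alone (0.32).

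Inx5, a further innexin of the adult brain, gave 20.3, 33.1, 34.8, 25.2 and 39.0 in tubule and 28.7, 34.7, 45.3, 26.4 and 37.5 in whole flies. The groups overlapped, and tubule was the higher in 1 of 5 pairs. The log2 fold change was -0.19, with a 95% interval of -0.68 to 0.30 (adjusted p = 0.48, limma), which leaves room for a change of either sign. All of its signals were under 50.

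ogre, named for the reduced optic lobes of its mutants and needed by glia and neuroblasts, was the lowest of the family relative to whole flies as the signals stand. Its signals were 23.8, 4.8, 4.0, 12.4 and 21.2 in tubule against 208.9, 217.6, 222.1, 210.6 and 206.8 in whole flies. The tubule signals were low and spread widely (13.2 ± 9.11), and the fly signals lay close together (213 ± 6.42), with no overlap. The enrichment was 0.0631 ± 0.0444 (SD, n = 5 pairs) and the log2 fold change -4.36 (SE 0.42, adjusted p = 6.6e-05, limma). As the tubule signals are low, the size of the change is uncertain: with signals under 50 set to 50 it was -2.09 (adjusted p = 2.9e-05), and zpg was then the lowest of the family (-2.77). Of 6 measured markers of glia, where ogre is used, 2 were higher in tubule (Gs2 and moody) and 1 lower (alrm), with a summed signal of 1030 to 1455 in tubule arrays against 678 to 1141 in fly arrays. Most of this sum was the signal of Gs2 (953 ± 188 in tubule and 685 ± 166 in whole flies). The signals of repo (7.82 in tubule and 13.5 in whole flies), gcm (3.72 and 3.44) and alrm (7.34 and 19.4) were low. Of 11 markers of neurons 6 were lower and none higher, and they summed to 93.3 to 134 in tubule arrays against 254 to 314 in fly arrays. These are sums of low signals, as 0 of the 11 had a tubule mean of at least 50 and 1 a fly mean of at least 50. Beside both counts, 16.5% of all genes were higher and 40.3% lower.

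Inx3 acts together with Inx2 in epithelia of the embryo. Its tubule signals were 67.7, 16.5, 6.5, 35.4 and 5.6, against 108.5, 132.2, 133.6, 127.0 and 119.8 in whole flies. The tubule arrays spread widely and the fly arrays did not, and every tubule array was the lower. The enrichment was 0.225 ± 0.242 (SD, n = 5 pairs), from 0.0467 in pair 6 to 0.624 in pair 2, and the log2 fold change -2.86 (SE 0.53, adjusted p = 0.0023, limma). In tubule 4 of the 5 signals were under 50, and a floor of 50 on all signals left a log2 fold change of -1.22 (adjusted p = 0.0031).

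zpg (zero population growth) makes gap junctions between germ cells and the somatic cells around them in ovary and testis. It had tubule signals of 90.3, 75.4, 45.1, 119.8 and 24.0, against 303.3, 546.1, 429.3, 670.7 and 622.2 in whole flies. Every tubule array was the lower, with the lowest in array 6. The enrichment was 0.152 ± 0.0965 (SD, n = 5 pairs) and the log2 fold change -3.01 (SE 0.36, adjusted p = 2.0e-04, limma). Of 11 measured genes of the female germline list 7 had an enrichment below that of zpg, among them osk, a determinant of the germ plasm (0.0556 ± 0.0664), vas, an RNA helicase of germ cells (0.0724 ± 0.0745), and otu (0.0339 ± 0.0238). The other 4 had a higher one, with vls at 0.281, grk at 0.397, stau at 0.483 and BicD, which was not called, at 0.913. No difference between these ratios and that of zpg was tested.

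**Figure D2:**
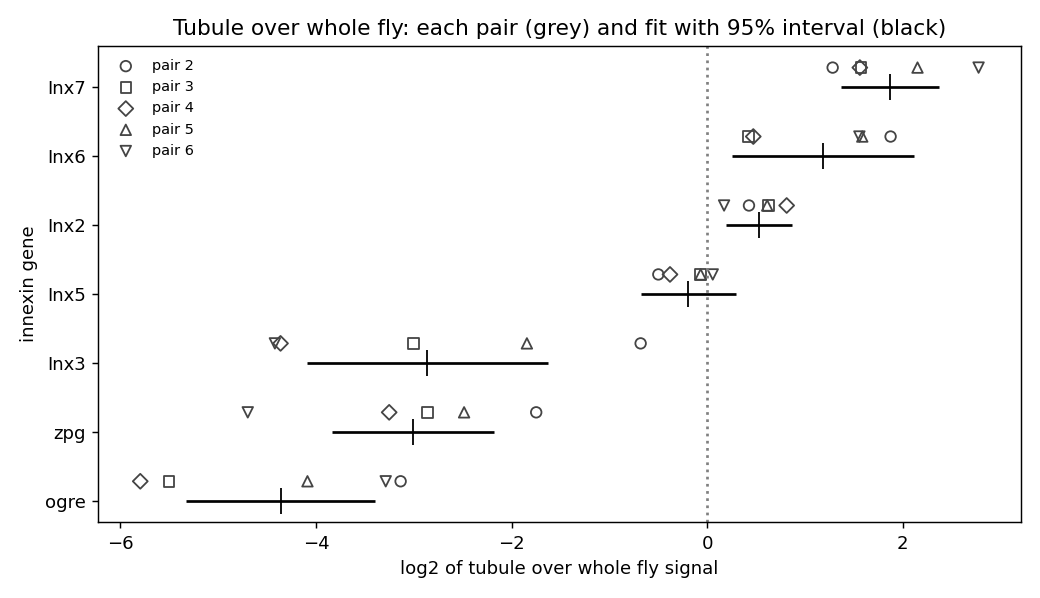
Log2 of tubule over whole fly signal of each innexin: open symbols are the 5 pairs, the black tick and bar the limma log2 fold change with its 95% interval, and the dotted line marks no difference. The intervals of Inx7, Inx6 and Inx2 lie above 0, that of Inx5 crosses it (-0.68 to 0.30), and those of Inx3, zpg and ogre lie below.

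In order of log2 fold change the family ran from Inx7 over Inx6, Inx2, Inx5, Inx3 and zpg to ogre. This order depends on low signals: with signals under 50 set to 50, Inx6 and Inx5 were both at 0, below Inx2 (0.53), and zpg (-2.77) was below ogre (-2.09). Neighbours in the order without that floor were compared by the difference of their log2 ratios within pairs (exact sign-flip permutation test, two-sided, 6 comparisons, for which the smallest possible p with 5 pairs is 0.0625). Inx2 was above Inx5 by 0.72 ± 0.40 and Inx5 above Inx3 by 2.67 ± 1.73 (SD, exact p = 0.0625 and adjusted p = 0.19 for each), in all 5 pairs. Inx3 and zpg differed by 0.15 ± 0.83, in 3 of 5 pairs (exact p = 0.75). Inx7 against Inx6, Inx6 against Inx2 and zpg against ogre had mean differences of 0.69, 0.65 and 1.35, with a sign shared by 4, 3 and 4 of the pairs, and none of the 6 comparisons could reach an adjusted p under 0.05.

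On the log2 scale the 3 innexins called lower varied the most among the tubule arrays. Inx3 and zpg both stood higher in arrays 2, 3 and 5 (Inx3 16.5 to 67.7, zpg 75.4 to 119.8) than in arrays 4 and 6 (Inx3 5.6 and 6.5, zpg 24.0 and 45.1). ogre did not share this split, with 21.2 in array 6 and 4.8 in array 3. The midgut markers did (12404 to 17964 against 953 and 2932). Markers of muscle and trachea had the same split by smaller margins, so it was not particular to the midgut list. Those of muscle summed to 972.1 to 1157.8 in arrays 2, 3 and 5, against 718.7 and 897.5 in arrays 4 and 6. Those of trachea, a sum of low signals, were lowest in arrays 4 (31.5) and 6 (81.0). Markers of the accessory gland, all 8 of which were lower in tubule, summed to 2771, 775, 2431, 4241 and 125 in tubule arrays 2 to 6, and to 5720 to 9795 in fly arrays. Those of the male germline, 7 of 10 of which were lower and none higher, summed to 567, 349, 364, 844 and 182, against 3036 to 6775 in fly arrays. Those of the female germline, 10 of 11 of which were lower, summed to 323, 215, 220, 360 and 258, against 1363 to 2195. Beside these counts, 40.3% of all genes were lower in tubule. The part of these tissues in the signals of Inx3 and zpg was not tested. With pairs 4 and 6 alone, chosen after the signals were seen, the log2 fold change was -4.39 for Inx3 and -3.97 for zpg. The tubule signals of both genes are lowest in these arrays, so a change larger than with all 5 pairs follows from the choice. In the same pairs it was 2.17 for Inx7 (adjusted p = 0.0030, limma) and -4.54 for ogre (adjusted p = 0.0017).

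**Figure D3:**
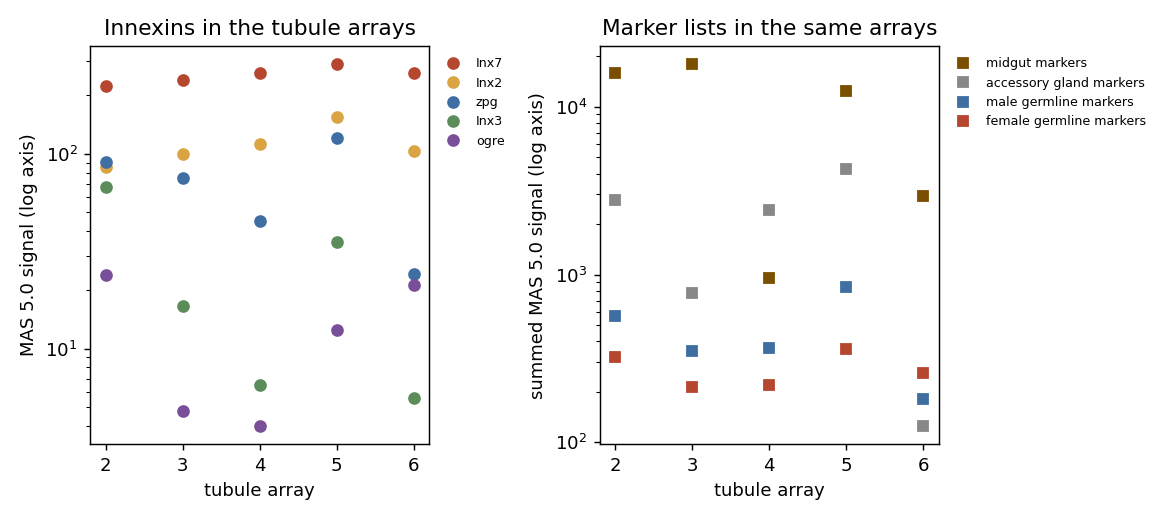
Left, MAS 5.0 signal (log axis) of 5 innexins in tubule arrays 2 to 6; right, summed signal (log axis) of marker lists in the same arrays. Inx3 and zpg lie lowest in arrays 4 and 6, as do the midgut markers (953 and 2932), while Inx7 stays between 222 and 288. Accessory gland (125) and male germline markers (182) lie lowest in array 6, as does zpg, and female germline markers (215) in array 3.

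The genome places ogre, Inx7 and Inx2 on the X chromosome almost side by side. In the RefSeq order of protein coding genes ogre is followed by bou, then Inx7, then Inx2. bou encodes a small membrane-anchored protein needed for septate junctions. Its signal was 3.04 ± 1.06 in tubule and 62.9 ± 14.2 in whole flies, with an enrichment of 0.0508 ± 0.0231 (SD, n = 5 pairs, adjusted p = 2.4e-05, limma). The tubule signals of bou were low, at 1.9 to 4.4, so the size of its change is uncertain. By the names of the annotation ogre and bou were thus lower in tubule along this stretch, and Inx7 and Inx2 higher. Were the names of the 2 probe sets exchanged, the gene between bou and Inx2 would have the low signals of 144172_at. These were 9.14 ± 1.40 in tubule and 4.50 ± 2.50 in whole flies (SD, n = 5). The call of that probe set was lost in 7 of 14 alternatives, and another left it out for its low mean signal. Inx5, Inx6 and shakB lie elsewhere on the X chromosome, zpg on 3L and Inx3 on 3R.

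The other junctions of the same membranes were set beside the innexins. Of 23 measured genes of septate junctions 4 were higher in tubule and 17 lower, with a median log2 fold change of -1.58, while of all 10844 genes 16.5% were higher and 40.3% lower with a median of -0.44. The list names 26 genes, but Atpalpha, Mcr and Fas3 had no probe set annotated to 1 gene and are not in these counts. The study reports Atpalpha as enriched in tubule and among its most abundant transcripts. The 4 that were higher were Ssk (signal 1949 ± 267 in tubule and 214 ± 159 in whole flies, enrichment 11.9 ± 5.36), mesh (enrichment 3.65 ± 1.84), Tsp2A (enrichment 4.28 ± 1.48) and bark (enrichment 5.78 ± 3.42), each with its SD over 5 pairs, and their adjusted p reached at most 0.0019 (limma). The signals of bark were the lowest of the 4, at 99.3 ± 61.3 in tubule and 19.6 ± 8.12 in whole flies. With signals under 50 set to 50, 3 septate junction genes were called higher. In whole fly array 2 Ssk and mesh stood at 494 and 707, above the other fly arrays (112 to 181 for Ssk and 225 to 321 for mesh), and without pair 2 the same number of 4 genes was called higher. Ssk, mesh and Tsp2A encode the membrane proteins of the smooth septate junction, the type of endodermal epithelia and of the tubule, and bark a protein of the corners where cells meet. The study itself describes the junctions between tubule cells as of a pleated kind, and the type of junction was not tested here. The 17 that were lower include genes of the pleated septate junction of ectodermal epithelia and glia. Of these 17, the lowest with a mean signal of at least 50 in a group were bou, Lac (enrichment 0.0944 ± 0.0491) and dlg1 (enrichment 0.145 ± 0.134). Their tubule signals were all under 50, so the sizes of these changes are uncertain. nrv2, with all signals under 50, had a log2 fold change of -4.46, against -4.42 for bou. Lac encodes an immunoglobulin domain protein and dlg1 a scaffold protein.

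Of 14 measured genes of adherens junctions and cell polarity none was higher and 7 were lower in tubule, with a median log2 fold change of -0.60. Of all genes 16.5% were higher and 40.3% lower, with a median of -0.44, so this list lay near the background. The lowest were cno (enrichment 0.347 ± 0.0324), which encodes a linker of the junction to actin, ed (0.366 ± 0.0702), an immunoglobulin domain adhesion gene, and p120ctn (0.404 ± 0.0698, SD, n = 5 pairs), a catenin gene. shg, the gene of E-cadherin, had 64.3 ± 11.6 in tubule and 65.9 ± 4.13 in whole flies (adjusted p = 0.80, limma). After quantile normalization 3 genes of this list were called higher and 4 lower.

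**Figure D4:**
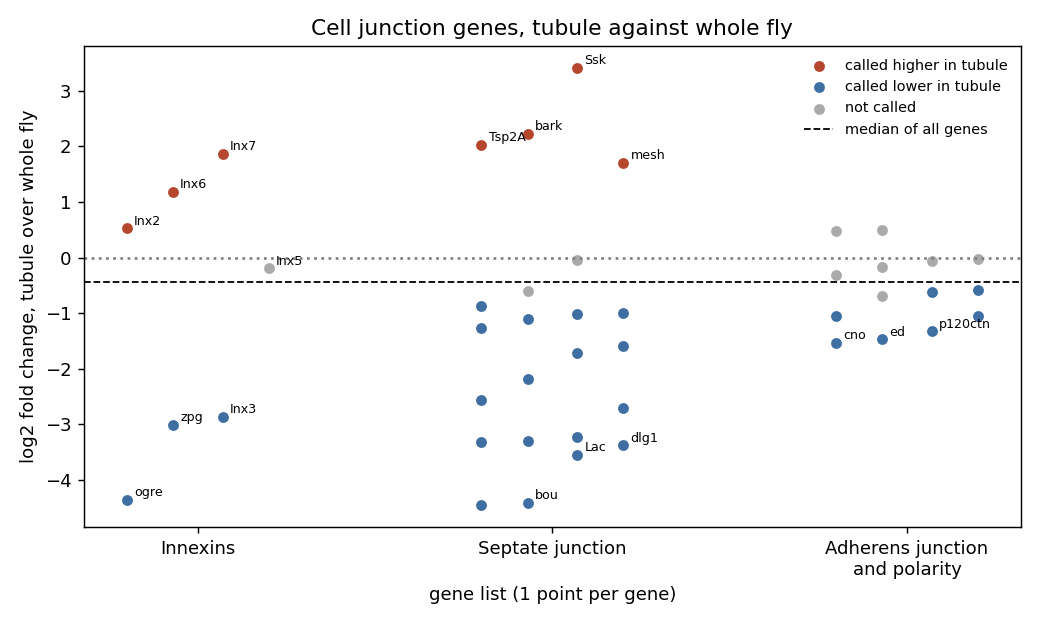
Log2 fold change of tubule over whole fly for innexins, septate junction genes and genes of adherens junctions and polarity, 1 point per gene; red points were called higher in tubule, blue lower and grey not called, the dashed line is the median of all genes (-0.44). The septate list holds 4 genes above 0, led by Ssk, and most of its points lie below -0.9.

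Among probe sets with 1 gene and a mean signal of at least 50, those whose log2 signals over the 10 arrays ran most like an innexin were found by Pearson correlation, as a description: all 10 arrays are shared, and the gap between tubule and fly makes up much of each r. Inx7 ran most like CG8952 (r = 0.990), ATP8B (r = 0.990) and ACXD (r = 0.986). Inx2 ran most like spri (r = 0.952), Axs (r = 0.911) and Lsd-2 (r = 0.907). For ogre they were Idgf2 (r = 0.986), CG8173 (r = 0.986) and mus304 (r = 0.985). For zpg they were retn (r = 0.994), pasi2 (r = 0.993) and Cdc6 (r = 0.992), and for Inx3 they were pyd (r = 0.983), which is a gene of the adherens list, CG13947 (r = 0.983) and Pglym87 (r = 0.982).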

How the data were processed

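The authors hybridised tubule and whole fly RNA to the Affymetrix Drosophila genome array, and deposited MAS 5.0 signal intensities on a linear scale: background subtracted, perfect match minus mismatch summarised per probe set, and each array scaled. These were used as scaled. The file lists 14010 probe sets, of which 44 array controls were left out. The platform annotation gives 12443 probe sets 1 gene, 327 several and 1196 none; 12394 were matched by gene identifier to RefSeq (Release 6) to update symbols. List genes used the probe set of highest mean signal. The test was limma 3.58.1 (R 4.3.3; lmFit and trended eBayes) on log2 signals. It took the pair as a block, because the methods pair samples by culture, and Benjamini-Hochberg adjustment ran over 13966 probe sets. Checked on simulated data, the script gave fold changes with little bias and the right sign in every call but missed some of the largest changes, more than first allowed, and the check was then based on bias, calibration and sign. Deviations from group means of same-numbered arrays correlated between -0.089 and 0.091, so the signals themselves showed no pairing. The number of arrays limits the precision, and since the sources used here do not say whether the pairs come from separate cultures, p-values measure the spread between these samples. Junction list genes were named as the 3 highest and 3 lowest called with a mean of at least 50 in a group, with mesh and shg added after their values were seen. Members and lists were chosen with earlier results of these data known. Alternatives were 16 added to signals, signals under 50 set to 50, a mean of at least 50, quantile normalization, RpL32 held constant, no block, the methods' t-test, and pairs left out.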

Additional observations from a re-analysis of the deposited data

Results flagged for a closer look

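In 36 groups of 5 arrays, those of the innexins and of the junction genes named, a single array stood far from the other 4 in 3, and chance alone flags about 1 group in 20. Each time it was whole fly array 2. Ssk had a signal of 494 there and 112 to 181 in the other fly arrays, mesh had 707 there and 225 to 321 in the others, and bou had 87.8 there and 54.6 to 61.5 in the others. None of the 7 innexins had such an array in either group.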

How the results depend on the processing

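The directions and calls of Inx7, ogre, Inx3 and zpg were the same under each of the 14 alternatives. Of the innexins called higher, 3 with all pairs, 1 was called with RpL32 held constant and 1 with pairs 3, 4 and 6 alone or with pairs 4 and 6 alone (both chosen after seeing the data); without 1 pair at a time 2 to 3 were called. Inx2 lost its call in 4 alternatives, the methods' t-test included (adjusted p = 0.077), and Inx6 in 7. Inx5 and Inx6 were left out, and so not tested, where a mean of at least 50 was required. The log2 fold change of Inx5 changed sign after quantile normalization (0.55), without a call. The cause was not tested. Quantile normalization shifted the median of all probe sets by 0.50 log2 and RpL32 by -0.34. Of all probe sets 2342 were higher and 5076 lower; higher were 4148 with quantile normalization (54.6% of calls, against 31.6%) and 1451 with RpL32 held constant (18.4%), and lower were 2453 with signals under 50 set to 50 and 2642 among those with a mean of at least 50, where 6125 were tested. Without 1 pair at a time 1962 to 2222 were higher and 4457 to 4877 lower. Septate junction genes called lower fell to 11 with signals under 50 set to 50 and 9 with a mean of at least 50 (without 1 pair at a time 17 to 18 lower and 4 higher). Those called higher were 3 with signals under 50 set to 50. Adherens junction genes called were 3 higher and 4 lower with quantile normalization and 4 lower with pairs 4 and 6 alone (without 1 pair at a time 5 to 7 lower and 0 higher). Without the pair as a block 3 innexins were higher and 3 lower, and 2491 probe sets were higher and 5247 lower; the block changed no call of an innexin. The methods' t-test, run here on MAS 5.0 signals by its p alone and without the limits on fold change and mean difference that the methods join to it on dChip values, called 2 innexins higher and 3 lower both at the methods' p limit and after Benjamini-Hochberg adjustment. Low signals limit the sizes of the changes of ogre, Inx3 and Inx6.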
